A study of Mus musculus with 3 samples.

Results

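The genes described here are 31 genes of cholesterol synthesis, sensing, transport, storage and export, taken by name and matched through the GENCODE M21 annotation to 31 of the 55536 genes in the deposited gene tables. They were measured by RNA-seq of polyadenylated RNA in activated regulatory T cells, primary CD4 T cells of the mouse that hold back immune responses and depend on Foxp3. All were taken from 1 male of 9 weeks, of the strain Foxp3GFP-DTRCD4CreERT2R26tdTomato. Its alleles put a fluorescent protein and the diphtheria toxin receptor under Foxp3, an inducible Cre recombinase under CD4 and a red reporter at the Rosa26 locus. How the cells were activated, and whether the Cre or the toxin receptor was used, is not given in the sources used here.

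There were 3 libraries, recorded as technical replicates 1, 2 and 3 of 1 biosample, and all carry the same alleles. They form 1 group with no resting or untreated cells beside it, so the data give levels in these cells and differences between libraries. Every SD is over 3 libraries, and each p-value compares those libraries and measures only a spread that may be technical. Gene-level estimated counts totalled 20783676, 21206219 and 18496690 in replicates 1, 2 and 3. The regulatory T cell markers Foxp3 (90.1 ± 6.76 TPM), Il2ra (352 ± 41.0 TPM) and Ctla4 (319 ± 5.43 TPM) were high in every library (SD, n = 3). TPM is a level corrected for transcript length and scaled to the same total in every library. Markers of other cells were also present: macrophage markers summed to 78.2, 51.8 and 80.6 TPM, B cell markers to 47.9, 49.0 and 52.8 TPM and erythroid markers to 909, 1270 and 1146 TPM in replicates 1, 2 and 3. Of these, 7 of 8, 4 of 5 and 5 of 5 genes reached 1 TPM in every library, and Marco had 0 counts in replicate 2. Part of each level below may come from such cells, which was not tested, and in a bulk sample fewer cells of a type and less RNA per cell cannot be told apart.

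Cholesterol is built from acetyl-CoA through the mevalonate arm, whose end products also feed protein prenylation, and then through squalene and a series of sterol intermediates. When sterol in the endoplasmic reticulum is low, Scap carries the SREBP factors, encoded by Srebf1 and Srebf2, to the Golgi, where proteases release them to switch on the synthesis genes. Insig proteins hold the complex back when sterol is plentiful, and liver X receptors, activated by oxysterols, then drive export. In T cells this pathway is known to supply membrane for growth after activation, and prenylated proteins are needed for regulatory T cell function. No lipoprotein receptor is among the 31 genes. Uptake is covered only by Mylip, a ligase that marks such receptors for degradation, and by the late endosomal proteins that receive their cargo.

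All 31 genes reached 1 TPM, and also 5 TPM, in every library. Among protein-coding genes, 47.4% of 21951 reached 1 TPM in every library and 38.4% reached 5 TPM. The median gene of the 31 was at 34.2 ± 1.94 TPM, and the medians of the 4 role groups were close to one another. The median was 32.3 ± 2.71 TPM for the 8 mevalonate arm genes, 36.6 ± 3.65 TPM for the 11 sterol arm genes, 36.0 ± 2.16 TPM for the 6 sensing and regulation genes and 32.7 ± 1.93 TPM for the 6 transport, storage and export genes. Summed over the 31 genes the level was 1365 ± 30.1 TPM.

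**Figure D1:**
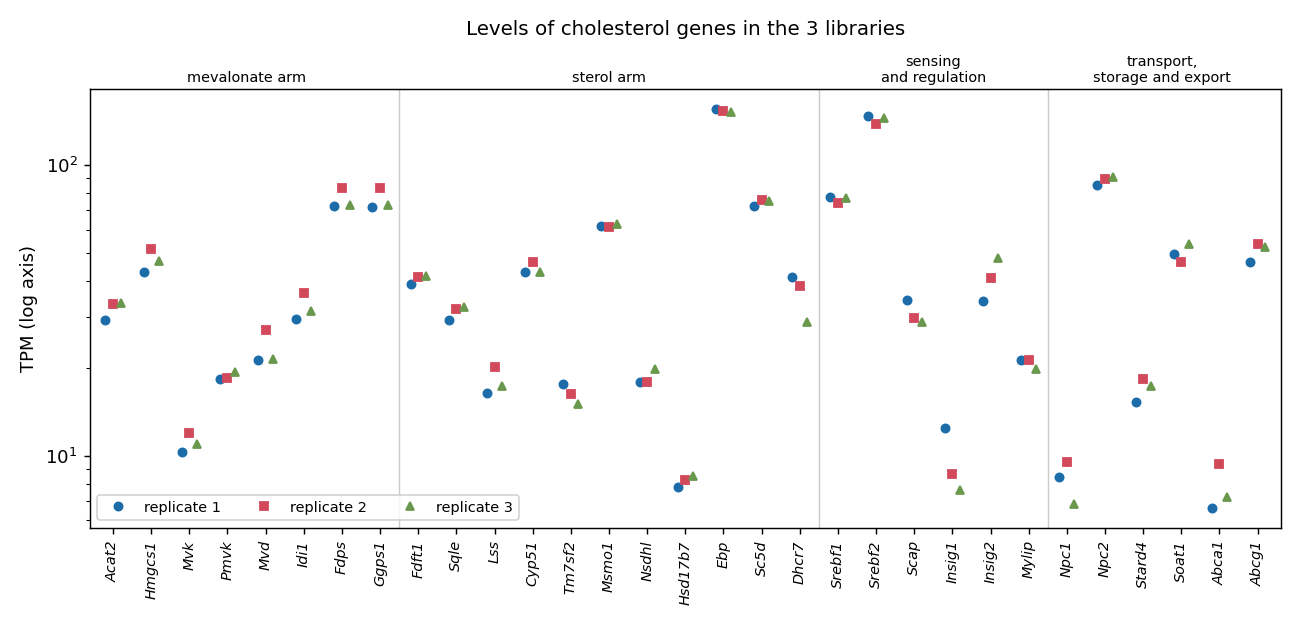
TPM on a log axis for each of the 31 genes, grouped by role, with 1 point per library (circle, replicate 1; square, replicate 2; triangle, replicate 3). Ebp and Srebf2 lie above 100 TPM in all 3 libraries, and Insig1, Npc1, Hsd17b7, Abca1 and Mvk lie lowest.

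In the mevalonate arm, the prenyl diphosphate synthases at its end stood highest by TPM over all transcripts of a gene. Ggps1 ranked lower where only transcripts with a consensus coding sequence tag were counted, as described below. Fdps, which makes farnesyl diphosphate, was at 72.21, 83.61 and 73.11 TPM in replicates 1, 2 and 3. Ggps1, which makes the geranylgeranyl diphosphate used to prenylate small GTPases, was at 71.67, 83.25 and 72.76 TPM. Both were thus level with each other on this scale and highest in replicate 2. Hmgcs1, the synthase that makes HMG-CoA, was next at 42.76, 51.33 and 46.84 TPM. Idi1, which isomerises the isoprene units, was at 32.4 ± 3.43 TPM, and Acat2, the cytosolic thiolase at the head of the arm, at 32.1 ± 2.46 TPM. The 3 enzymes that turn mevalonate into isopentenyl diphosphate were the lowest of the arm: Mvd at 23.3 ± 3.26 TPM, Pmvk at 18.7 ± 0.581 TPM and Mvk at 11.1 ± 0.843 TPM.

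In the sterol arm mean levels spanned 8.22 to 154 TPM. Ebp, the sterol isomerase, was at 155.66, 153.03 and 152.42 TPM, the highest of the 31 genes. Sc5d, the lathosterol desaturase, was at 72.49, 75.79 and 74.97 TPM. Dhcr7, which makes cholesterol from 7-dehydrocholesterol, was at 41.22, 38.35 and 28.80 TPM, with replicate 3 lowest. Msmo1 (61.9 ± 0.537 TPM), which oxidises the C4 methyl groups, and Cyp51 (44.0 ± 1.93 TPM), the lanosterol demethylase, varied little between libraries. Fdft1, the squalene synthase, was at 40.7 ± 1.43 TPM and Sqle, the squalene epoxidase, at 31.2 ± 1.75 TPM. Lower levels were seen for Lss, the lanosterol synthase (16.39, 20.15 and 17.41 TPM), Nsdhl, a sterol dehydrogenase (18.6 ± 1.07 TPM), Tm7sf2, a sterol reductase (16.4 ± 1.27 TPM), and Hsd17b7, a sterol ketoreductase (8.22 ± 0.363 TPM).

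Of the regulators, Srebf2, whose product mainly drives cholesterol genes, was at 147.23, 137.93 and 145.54 TPM. Srebf1, whose products also drive fatty acid genes, was lower, at 77.38, 74.28 and 77.22 TPM, and the ranges of these factors did not overlap. The Insig genes differed more widely. Insig2 was at 33.96, 40.97 and 47.81 TPM, whereas Insig1, itself an SREBP target, was at 12.51, 8.68 and 7.63 TPM. Scap was at 34.43, 29.69 and 28.92 TPM and Mylip at 20.9 ± 0.831 TPM.

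Of the genes that move, store or export cholesterol, Npc2, the soluble lysosomal cholesterol carrier, was at 85.22, 89.50 and 90.63 TPM. Its membrane partner Npc1 was at 8.49, 9.49 and 6.85 TPM, below Npc2 in every library. Soat1, which esterifies cholesterol for storage, was at 49.9 ± 3.54 TPM, and Stard4, a cytosolic sterol carrier, at 17.0 ± 1.57 TPM. The exporters were unequal: Abcg1 was at 46.59, 53.71 and 52.18 TPM and Abca1 at 6.64, 9.37 and 7.23 TPM. When the 31 genes were ordered by mean TPM, 8 of the 30 neighbouring pairs had ranges that did not overlap. These were the steps from Ebp to Srebf2, to Npc2 and to Fdps, from Sc5d to Msmo1 and to Abcg1, from Scap to Mvd, from Mylip to Pmvk and from Tm7sf2 to Mvk. The other neighbours did not differ beyond their spread.

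The order changed where only transcripts with a complete coding sequence were counted, defined as those that carry the consensus coding sequence (CCDS) tag in GENCODE. These transcripts held 90% or more of the gene's TPM in 11 of the 31 genes and under 50% in 7, with a median share of 83.1%. The leading transcript was annotated as coding in 31 genes and was the same one in every library in 26. Ebp (X:8185329-8193512, minus strand) was the extreme case. Its only CCDS transcript, Ebp-201, was at 13.97, 14.82 and 14.31 TPM, a share of 9.35 ± 0.356%. The rest lay mainly in Ebp-203, a coding transcript of 526 bases without the tag, at 70.9 ± 2.17 TPM, and in Ebp-202, a retained-intron transcript of 1034 bases, at 67.7 ± 3.21 TPM. By CCDS transcripts Ebp thus ranked 23 of 31 instead of 1, and Npc2 (82.6 ± 2.62 TPM), Sc5d (74.4 ± 1.72 TPM) and Fdps (73.1 ± 5.87 TPM) ranked highest. Ggps1, level with Fdps over all transcripts, ranked 16 at 25.9 TPM, below Hmgcs1 (42.5 TPM) and Idi1 (31.6 TPM). The other genes under 50% of TPM were Ggps1 (34.2%), Npc1 (36.7%), Srebf2 (42.0%), Lss (44.6%), Abcg1 (48.1%) and Srebf1 (49.1%). These shares depend on the scale, since TPM weights short transcripts up. As a share of estimated counts, an alternative chosen after seeing the data, CCDS transcripts held over 50% in each of these 6 genes, at 71.1% for Ggps1, 58.6% for Npc1, 58.5% for Srebf2, 70.7% for Lss, 85.6% for Abcg1 and 77.2% for Srebf1. Only Ebp stayed under 50%, at 19.4%.

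**Figure D2:**
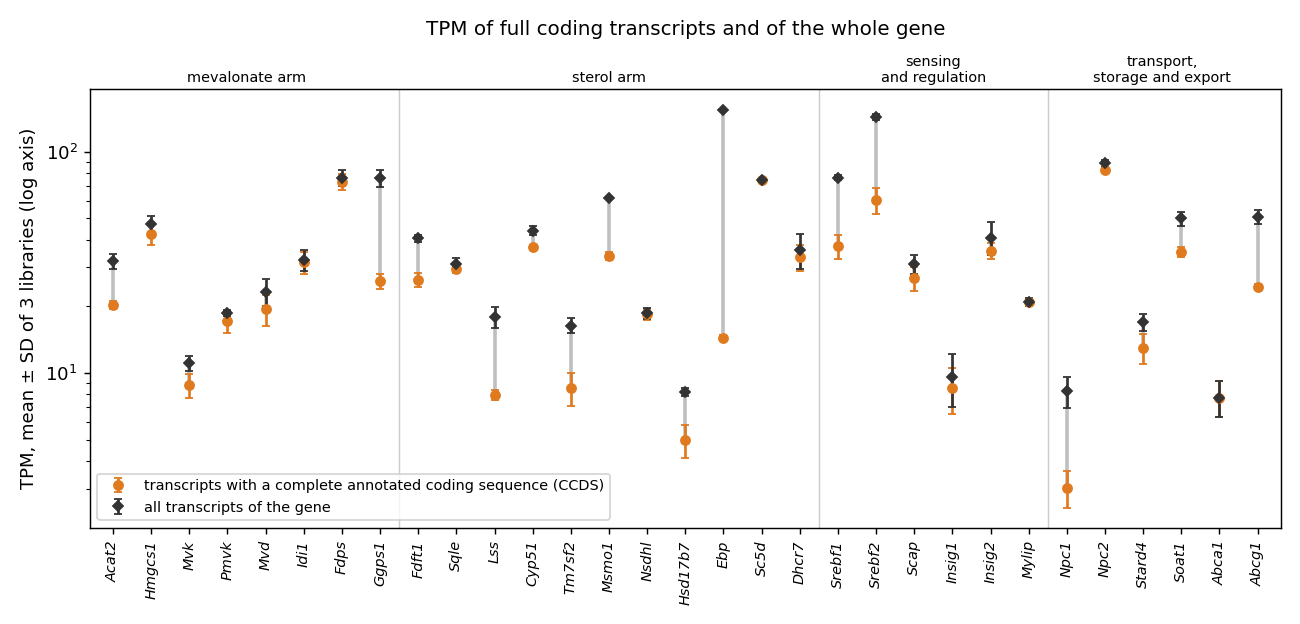
Mean TPM with SD over 3 libraries, on a log axis, of CCDS transcripts (orange circles) and of all transcripts of each gene (dark diamonds), joined by a line. Transcripts without the CCDS tag may also be coding. The longest gap is that of Ebp, at 14.4 against 154 TPM, and Abca1, Sc5d and Mylip show none.

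Srebf1 (11:60199089-60222581, mm10, minus strand) makes different proteins from different starts. The start at 60220604, that of Srebf1-201, leads to a protein of 1134 residues with 29 residues before the shared part, the SREBP-1a type, known as the stronger activator. The start at 60210465, that of Srebf1-207, gives 5 residues before the shared part, the SREBP-1c type, which predominates in liver. Transcripts from the SREBP-1a start were at 38.7, 32.4 and 41.3 TPM in replicates 1, 2 and 3. The 2 transcripts from the SREBP-1c start together were at 14.5, 8.41 and 11.1 TPM, below the SREBP-1a start in every library. Only Srebf1-207 of these 2 is annotated as coding, and it was at 13.78, 5.55 and 4.88 TPM in replicates 1, 2 and 3. The other, of 686 bases and not annotated as coding, was at 0.77, 2.86 and 6.23 TPM. The summed level thus does not follow the coding transcript, which was lowest in replicate 3. A start further upstream, at 60222581, was at 13.2, 14.2 and 12.6 TPM and internal starts at 10.9, 19.3 and 12.2 TPM. Of all Srebf1 transcripts only Srebf1-201 carries the CCDS tag, so those from the SREBP-1c start lack it too. The split is an estimate: Srebf1-207 had 570, 241 and 180 estimated counts with a deposited posterior SD of 101, 93.7 and 88.1.

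**Figure D3:**
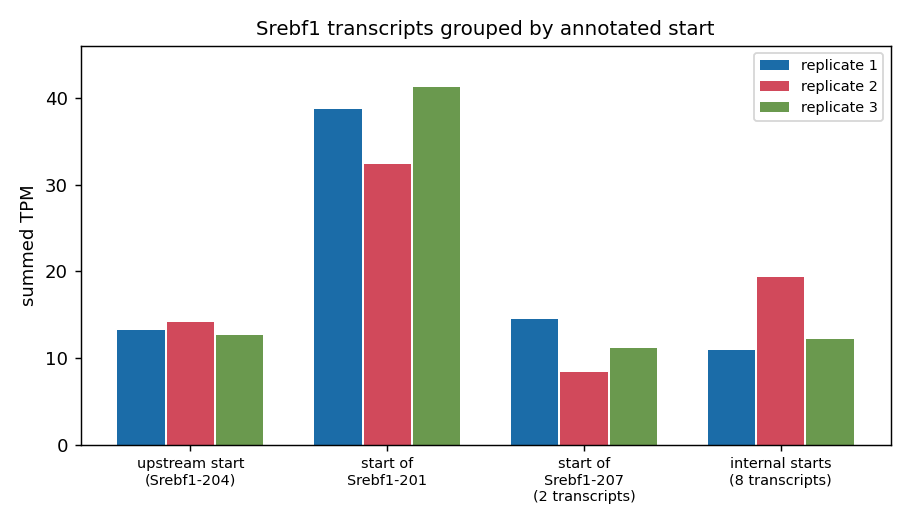
Summed TPM of Srebf1 transcripts by annotated start, with 1 bar per library (replicate 1, 2 and 3 from left to right). The start of Srebf1-201, the SREBP-1a type, is the highest of the 4 in every library, at 32.4 to 41.3 TPM.

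Promoter windows of 250 bases before the start, from RefSeq on GRCm38.p6, were found for 25 of the 31 genes, in 33 windows. There is no window for Fdps, Fdft1, Sqle, Npc1, Stard4 and Abcg1. Both strands were searched for 5 motifs, and the matches are descriptions only. The sterol regulatory element, the SREBP motif written here as TCACNCCAC, was found in 1.05% of all 32851 windows and, of the 25 genes, in Hmgcs1. Its window is shown as the 1 that holds this motif, with the match in capitals, 137 bases before the RefSeq start (GRCm38.p6, chr13:119690101-119690350, plus strand).
Hmgcs1: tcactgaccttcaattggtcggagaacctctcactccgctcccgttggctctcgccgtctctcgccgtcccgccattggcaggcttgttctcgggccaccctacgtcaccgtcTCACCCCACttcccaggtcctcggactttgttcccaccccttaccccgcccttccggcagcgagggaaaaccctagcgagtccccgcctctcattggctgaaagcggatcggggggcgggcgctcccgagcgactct

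The CCAAT motif, bound by the NF-Y factor that works beside SREBP, was found in 22 of the 25 genes, in 23 of 33 windows, against 33.8% of all windows. The GC box, written as GGGCGG and bound by Sp1, was also found in 22 of the 25 genes, in 25 of 33 windows, against 32.7% of all windows. Among 8714 genes that reached 1 TPM in every library, 41.2% had a CCAAT and 63.1% a GC box. The E-box CACGTG was found in 6 of the 25 genes, against 6.86% of all genes with a window and 10.1% of the detected ones. The window of Mvd shows 2 CCAAT matches in capitals, 1 on each strand, 60 and 27 bases before the start (chr8:122443423-122443672, minus strand), and is shown because Mvd had the highest ratio of replicate 2 to the other libraries among the enzymes, described below.
Mvd: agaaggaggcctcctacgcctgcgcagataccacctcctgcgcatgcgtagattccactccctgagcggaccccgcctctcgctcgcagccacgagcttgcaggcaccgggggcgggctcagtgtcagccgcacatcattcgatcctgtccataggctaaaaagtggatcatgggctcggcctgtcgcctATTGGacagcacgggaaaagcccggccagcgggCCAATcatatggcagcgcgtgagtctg

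The liver X receptor motif, a direct repeat read here as NGGTNA, any 4 bases and NGGTCA, was the rarest, in 0.177% of all windows and 0.115% of the detected genes. It was found in 2 of the 25 genes, Abca1 and Srebf1. In Srebf1 it lay in the window of the SREBP-1c start, 182 bases before it (chr11:60210472-60210721, minus strand), and in neither of the other Srebf1 windows. In Abca1 it lay 67 bases before the start (chr4:53159896-53160145, minus strand). Both windows are shown with the match in capitals, which reads as the reverse complement of the motif.
Abca1: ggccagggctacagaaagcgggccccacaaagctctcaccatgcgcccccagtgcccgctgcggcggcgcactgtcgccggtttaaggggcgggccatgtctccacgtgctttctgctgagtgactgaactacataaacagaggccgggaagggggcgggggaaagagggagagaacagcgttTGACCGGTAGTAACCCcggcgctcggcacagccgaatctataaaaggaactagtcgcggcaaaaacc
Srebf1: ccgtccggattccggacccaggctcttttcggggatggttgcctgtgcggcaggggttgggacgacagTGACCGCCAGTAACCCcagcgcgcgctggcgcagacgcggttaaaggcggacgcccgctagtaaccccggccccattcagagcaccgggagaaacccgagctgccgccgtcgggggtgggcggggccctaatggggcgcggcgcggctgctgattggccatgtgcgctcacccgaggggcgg

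Whether the libraries differed by more than counting noise was tested gene by gene with a chi-square test (Pearson) of estimated counts against library totals, over the 14641 genes whose counts summed to at least 30. Values in this comparison are CPM, counts scaled to library size and not to length. Of the 31 genes, 19 differed at a Benjamini-Hochberg adjusted p under 0.05, against 44.9% of all genes tested and 55.7% of the 8102 genes whose mean count lay in the same span, 209 to 6669. The number that differed was thus close to the background. The number fell to 9 without replicate 1 and to 9 without replicate 2, and was 17 without replicate 3, where 30.3, 27.7 and 34.0% of all genes differed. The direction stood further from the background, but replicate 2 was singled out with earlier results of these data known. The shares that follow are a description, and no test was run on them. Replicate 2 was the highest library for 21 of the 31 genes, against 33.0% of all genes tested, and 14 both differed and were highest there, against 14.2%. Within the span of mean counts those background shares were 31.5% and 17.4%. Replicate 1 was highest for 4 genes that differed, Dhcr7, Srebf1, Scap and Insig1, against 17.1% of all genes and 22.0% in the span, and replicate 3 for 1, Srebf2, against 13.6% and 16.3%. On the TPM scale 13 of the 31 were highest in replicate 2, against 27.6% of all genes and 24.2% in the span; TPM also follows the estimated mix of long and short transcripts.

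The shift was small. The median log2 ratio of replicate 2 over the mean of replicates 1 and 3 was 0.08 over the 31 genes and 0.12 over the 19 synthesis enzymes, against -0.02 over all genes tested. It lay above 0 for 24 of the 31 genes (77.4%) and 16 of the 19 enzymes (84.2%), against 46.7% of all genes. After centring on genes of like GC content, an alternative chosen after seeing the data, the median was 0.11.

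Of the 8 mevalonate arm genes, 6 differed, against 55.7% of all genes in the span of mean counts. All 6 were highest in replicate 2. Thus 6 of 8 both differed and were highest there, against 17.4% in the span. Of the 4511 genes in the span that differed, 1408 were highest in replicate 2. No test compared the mevalonate arm with the other groups. Mvd was at 30.4 CPM in replicate 2, against 23.3 and 23.6 CPM in replicates 1 and 3 (adjusted p = 1.55e-05, chi-square). Idi1 was at 69.2 CPM in replicate 2, against 54.1 and 59.3 CPM (adjusted p = 1.27e-08), and Hmgcs1 at 103 CPM, against 81.2 and 92.8 CPM (adjusted p = 1.92e-11). The others were Acat2, Fdps and Ggps1, at 44.1, 68.0 and 108 CPM in replicate 2, and their log2 ratios were 0.18, 0.21 and 0.20. Mvk and Pmvk, the kinases, did not pass the test and were highest in replicate 3. Of the 6 genes that differed, Hmgcs1, Idi1, Fdps and Ggps1 share 12.1, 9.22, 26.7 and 5.44% of their exon bases with another gene. In a second deposited gene table, described at the end, Hmgcs1 (adjusted p = 0.000969, chi-square) and Mvd (adjusted p = 0.00540) also differed and were highest in replicate 2, Acat2, Fdps and Ggps1 did not pass the test, and Idi1 had too few counts to be tested.

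In the sterol arm 5 of 11 genes differed, against 55.7% of all genes in the span of mean counts. Fdft1, Sqle, Hsd17b7 and Sc5d were highest in replicate 2, with log2 ratios of 0.15, 0.10, 0.23 and 0.13. Dhcr7 stood apart, at 62.0, 58.7 and 46.1 CPM in replicates 1, 2 and 3 (adjusted p = 3.08e-10), with replicate 3 well below the others. Lss, Cyp51, Tm7sf2, Msmo1, Nsdhl and Ebp did not pass the test.

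Of the 6 sensing and regulation genes, 4 differed, against 55.7% of all genes in the span of mean counts. Of the 6, 0 both differed and were highest in replicate 2, against 17.4% in the span. With so few genes this count is near that share, and nothing particular to the regulators is drawn from it. Srebf1 was at 114 CPM in replicate 2, against 148 and 137 CPM in replicates 1 and 3 (adjusted p = 1.33e-20), a log2 ratio of -0.32. Scap was at 69.7 CPM in replicate 2, against 83.7 and 69.9 CPM (adjusted p = 1.85e-07), and Insig1 at 14.1 CPM, against 18.9 and 11.9 CPM (adjusted p = 3.86e-07). Both were highest in replicate 1, with the other libraries close together for Scap. Srebf2 was highest in replicate 3, at 342 CPM, and spanned only 1.07-fold (adjusted p = 0.00129). Insig2 and Mylip did not pass the test and were highest in replicate 2. Thus 2 of the 6 were highest there, against 31.5% in the span.

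Of the 6 transport, storage and export genes, 4 differed, against 55.7% of all genes in the span of mean counts. All 4 were highest in replicate 2, so 4 of 6 both differed and were highest there, against 17.4% in the span. No test compared these genes with the other groups. Abca1, the exporter to lipid-poor apolipoprotein A-I, was at 62.5 CPM in replicate 2, against 43.1 and 47.1 CPM in replicates 1 and 3 (adjusted p = 4.48e-18), the highest log2 ratio of the 31 genes at 0.47. Abcg1, the exporter to HDL, was at 110 CPM, against 99.9 and 108 CPM (adjusted p = 0.0140). Npc1 was at 19.8 CPM, against 17.8 and 14.2 CPM (adjusted p = 0.000448), and Npc2 spanned 1.08-fold. Stard4 and Soat1 did not pass the test.

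**Figure D4:**
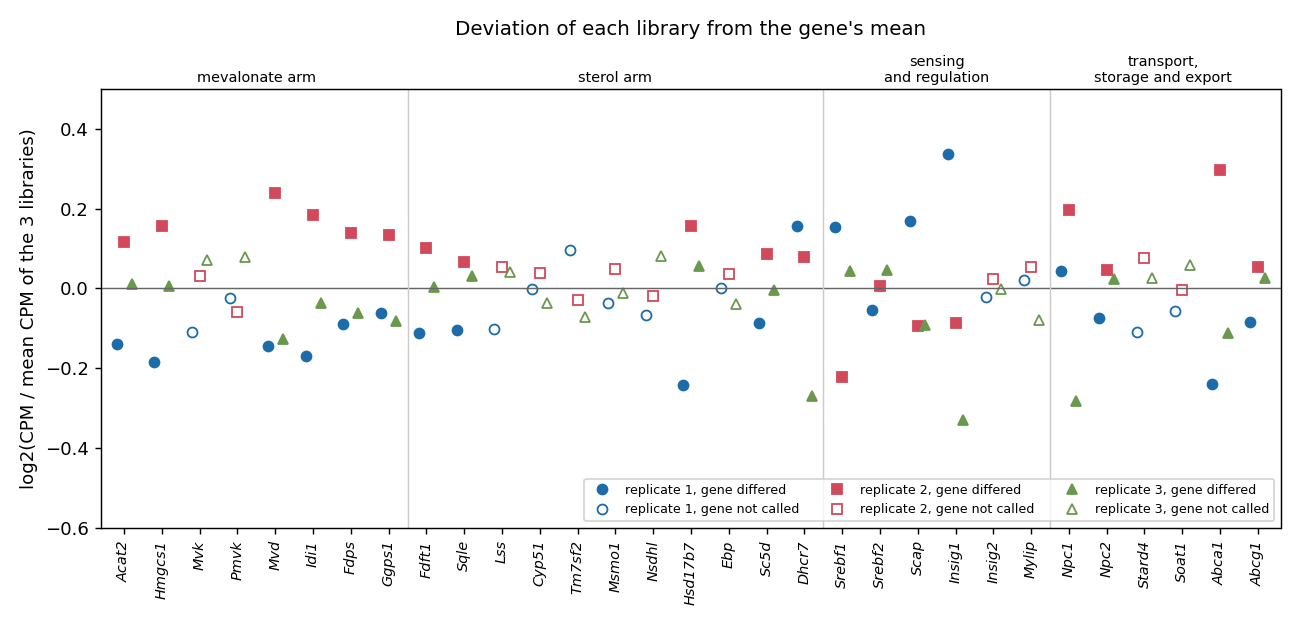
Log2 of CPM in each library over the gene's mean CPM of the 3 libraries, for the 31 genes by role (circle, replicate 1; square, replicate 2; triangle, replicate 3; filled where the gene differed between libraries, open where it was not called). Replicate 2 lies above 0 for the mevalonate arm genes that differed and for Abca1 and Npc1, and below 0 for Srebf1, Scap and Insig1.

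Other features moved with replicate 2. The heat shock genes Hspa1a and Hspa1b together were at 100 CPM in replicate 2, against 10.7 and 9.37 CPM in replicates 1 and 3. Mitochondrial transcripts took 1.79% of counts in replicate 2, against 1.62 and 1.50%, and ribosomal protein genes 2.86%, against 2.31 and 2.42%. Replicate 2 was the highest library for 5 of 5 erythroid markers, against 33.0% of all genes tested. It was the lowest for 6 of the 7 macrophage markers tested, for which no share over all genes is given. Of the 7 regulatory T cell markers, 6 differed, against 44.9% of all genes tested. Of these, 1, 3 and 2 were highest in replicates 1, 2 and 3, the 3 being Foxp3, Il2ra and Ikzf2. Il2ra was at 799, 845 and 652 CPM, and 5 of the 7 markers were lowest in replicate 3. For this count too no share over all genes is given, so nothing is drawn from it. The part of these features in the differences above was not tested.

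The wider pathway was described through 7 lists of genes around the 31, and for each list genes from its highest and lowest are given. The counts below are to be read against the 47.4% of protein-coding genes that were detected and the 44.9% of genes tested that differed (55.7% in the span of mean counts), and nothing particular to a list is drawn from them. Of 7 genes that process SREBP or mark its regulators for degradation, 7 were detected and 3 differed, none of them highest in replicate 2. Aup1 (446.00, 386.47 and 431.03 TPM) and Mbtps1, a protease that cleaves SREBP in the Golgi (94.3 ± 4.36 TPM), were highest, and Rnf139, a ubiquitin ligase, was among the lowest at 13.9 ± 1.08 TPM. Of 10 genes of oxysterol metabolism and liver X receptor signalling, 5 were detected, and 2 of 5 tested differed. The receptor Nr1h2 was at 122 ± 7.17 TPM and its partner Rxrb at 18.9 ± 1.53 TPM. Nr1h3, the other liver X receptor, was at 2.58 ± 0.893 TPM and is named after its value was seen. Rxrg, Ch25h and Cyp7b1, the last 2 being sterol hydroxylases, had 0 counts. Each thus lay below the limit of 3 counts in a library, 0.144, 0.141 and 0.162 CPM in replicates 1, 2 and 3.

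Among 6 other uptake and lysosomal genes, 4 were detected and 2 of 5 tested differed. Lipa, the lysosomal acid lipase that frees cholesterol from its esters, was highest at 80.2 ± 2.48 TPM, while Lrp8 was at 0.380 ± 0.101 TPM and Vldlr at 0.0233 ± 0.00577 TPM. Of 9 sterol transfer genes, 9 were detected and 5 differed. Gramd1a, a carrier from plasma membrane to endoplasmic reticulum, was at 216 ± 14.1 TPM and Osbpl9 at 139 ± 10.5 TPM, and the lowest were Gramd1c (4.88 ± 0.699 TPM) and Osbp (2.58 ± 0.247 TPM). Of 4 further sterol ester genes, 3 were detected and 2 of 3 tested differed. The second acyltransferase, Soat2, was at 1.21 ± 0.0651 TPM beside Soat1 at 49.9 ± 3.54 TPM. The hydrolases Nceh1 and Lipe were at 23.4 ± 3.39 and 15.1 ± 0.459 TPM, and Lcat, a plasma enzyme, was at 0.287 ± 0.333 TPM.

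The 12 isoprenoid users, which draw on the products of the mevalonate arm, were all detected and 5 differed. Rabggta (57.5 ± 4.07 TPM) and Fnta (51.8 ± 8.05 TPM), subunits of prenyl transferases, were highest, and Nus1 (4.22 ± 0.621 TPM) and Icmt (4.09 ± 0.756 TPM) lowest. Of 10 fatty acid genes that SREBP factors also drive, 7 were detected and 4 of 9 tested differed. Acly, which supplies cytosolic acetyl-CoA, was at 183 ± 8.03 TPM and the desaturase Scd2 at 89.3 ± 7.15 TPM, and both were highest in replicate 3. Fads2 was at 0.463 ± 0.0252 TPM and Me1 had 1 count in all. The median log2 ratio of replicate 2 was 0.02 for the fatty acid genes and -0.01 for the isoprenoid users.

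A second deposited gene table, with whole-number counts on the older GENCODE M4, gave a check on the counts. Over all genes it held 30.2% of the estimated counts of the first table, and over the 31 genes the median share was 42.6%, with Scap highest at 77.2%. Idi1 was the lowest, with 10, 7 and 3 counts in replicates 1, 2 and 3, against 1124, 1468 and 1096 estimated counts in the first table, a share of 0.542%. Acat2 (14.5%), Npc2 (17.2%) and Fdps (21.5%) followed. In the M21 annotation 9.22% of the exon bases of Idi1 overlap Gm48574 on the opposite strand, and 26.7% of those of Fdps overlap Gm43738 on the same strand, whereas Acat2 and Npc2 share none. Overlaps in M4, the annotation of the second table, were not computed. Whether the counting used strand is not given in the sources used here, so reads of overlapping genes cannot be told apart, and the part of overlap in these shares was not tested. The near copies Acat3 and Idi2 had at most 0.48 and 0.14 TPM. Of the 31 genes, 20 share no exon bases with another gene. Of these 20, 11 differed between libraries, against 55.7% of all genes in the span of mean counts. Both differing and highest in replicate 2 were 8 of the 20, against 17.4% in the span.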

How the data were processed

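RNA-seq of polyadenylated RNA, fragmented by shearing per the labels, was available for 3 libraries of 1 biosample. Per library the authors deposited a gene and a transcript table on mm10 with GENCODE M21, holding estimated counts (expected counts), TPM and FPKM, and a second table of whole-number counts on GENCODE M4. The deposited tables also hold a posterior SD of each estimated count, a score of the quantifier's own uncertainty per the file headers. Aligner, quantifier and strandedness: not given in the sources used here. Totals leave out rows without an Ensembl mouse gene identifier. Estimated counts were rounded and tested against library totals (chi-square, 2 degrees of freedom, summed count of 30 or more, Benjamini-Hochberg over all genes, threshold 0.05). Log2 ratios used a pseudocount of 0.5 CPM. Depth was 20783676, 21206219 and 18496690 estimated counts, so that 3 counts correspond to 0.144, 0.141 and 0.162 CPM. Intervals and limits cover counting error only. The test was tested on simulated data. Alternatives were TMM (edgeR 4.0.16) and DESeq2 1.42.0 factors, other filters, a deviance statistic, FPKM, other pseudocounts, the second table and leaving out each library. All 31 genes are named, and of each companion list the 2 highest and 2 lowest by mean TPM (all of up to 4); some genes this rule names are not reported here but stay in every count. Members, lists and the choice of replicate 2 were made with earlier results of these data known. Software was Python 3.11.15, scipy 1.17.1 and R 4.3.3.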

Additional observations from a re-analysis of the deposited data

How the results depend on the processing

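Detection of 31 of 31 genes held under every threshold, unit and left-out library tried. TMM factors gave 20 genes that differed and DESeq2 factors 19, with 21 highest in replicate 2 under each, and the other count filters and the deviance statistic gave 18 or 19. The second gene table gave 9 that differed, all 9 of them among the 19, where 23.2% of all genes did. In it 23 were highest in replicate 2, and 6 both differed and were highest there. No share over all genes was computed for these counts. Without the genes that share exon bases, chosen after seeing the data, the numbers were 11 and 8 of 20. The shares over all genes in the span of mean counts were 55.7% and 17.4%. Leaving out 1 library gave 9 to 17 that differed and a median log2 ratio of 0.07 to 0.13. Without replicate 1 and without replicate 3, 24 and 25 were highest in replicate 2. With 2 libraries left, 50.8 and 46.8% of all genes were, so this does not show a stronger pattern. Those that differed and were highest there numbered 8 and 14, against 14.9 and 14.4% of all genes. On deposited TPM 13 were highest in replicate 2. After GC centring 17 were highest in replicate 2, as were 12 of the genes that differed. No share over all genes was computed after centring, so these counts cannot be set against a background. The median enzyme level was 21 FPKM on that scale and 43.2 TPM as a mean over genes, against a median of 32.7 TPM. Computed from estimated counts in place of TPM, 23 of 31 leading transcript shares moved by more than the spread between libraries, and genes with under 50% in CCDS transcripts numbered 1 in place of 7. The causes of these changes were not tested. No paired analysis was possible because all libraries form 1 group. With 1 biosample, the tests say nothing of variation between animals, and the short transcripts behind Ebp and Srebf1 rest on model estimates.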
